A study of Mus musculus with 12 samples.

Results

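The mitochondrial ribosomal protein genes of mouse bone marrow were read on arrays from 12 mice. They were taken as every gene whose symbol on the array starts with Mrps or Mrpl followed by a number. The rule found 76 genes among the 18193 genes with a symbol of their own, 29 named Mrps and 47 named Mrpl. Each was read on its brightest probe set over the 12 arrays, out of 156 probe sets that carry these symbols. All 76 passed the filter on dim genes, which asked for a signal above the array's median on at least 3 arrays and left 11908 genes to test. The mice were wild-type C57Bl/6 animals, mice lacking Fancc (Fancc-/-), mice lacking Fancg (Fancg-/-) and mice lacking both (double knockout). Each genotype had 3 mice. Every mouse gave 1 array of RNA from whole marrow flushed out of tibia and femur, with no sorting, culture or pooling. The labels give neither the age nor the sex of the mice, nor the strain background of the knockouts. The design asks how the loss of either Fanconi anemia gene, or of both, changes expression in whole marrow. The values are log2 signals, so a difference of 1 is a doubling.

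The mitochondrial ribosome translates the few messages of mitochondrial DNA, which encode core subunits of the respiratory chain. All of its proteins are encoded in the nucleus, made in the cytosol and imported. Its small subunit binds and decodes the message, and its large subunit joins the amino acids. Some of the proteins have counterparts in bacterial ribosomes and others are found only in mitochondria. The names do not always give the subunit, since Mrps18a and Mrps30 encode proteins of the large subunit, and Mrps36 encodes a protein now assigned to the 2-oxoglutarate dehydrogenase complex. The products of Fancc and Fancg belong to the core complex of the Fanconi anemia pathway, needed to repair crosslinked DNA.

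Several features of the arrays bear on every comparison. Fancg signal was lower in double-knockout than in wild-type marrow by a log2 change of -1.10 ± 0.16 SE (adjusted p = 0.01054 in limma), while its change in Fancg-/- was -0.44 (adjusted p = 0.5673) and Fancc read 0.02 from wild type in Fancc-/-. Whether these probe sets fall inside the deleted stretches is unknown, so they do not settle the genotypes. Xist, expressed from the inactive X chromosome of female cells, read 11.3 to 12.23 in wild type and 5.99 to 7.39 in the double knockout, and the Y-linked Eif2s3y read 2.89 to 3.20 and 8.81 to 9.35. Sex-linked signal and genotype therefore cannot be told apart between these groups. In Fancg-/- the arrays differed, at 7.64, 9.09 and 5.78 for Eif2s3y against 11.31, 7.34 and 10.75 for Xist, so replicates 1 and 3 carried both signals, although the labels give 1 unpooled mouse per array. The cell type markers moved as well. Of 11 erythroid markers tested, 9 rose in Fancc-/-, 0 passed in Fancg-/- and 2 rose in the double knockout, with median changes of 1.19, 0.68 and 0.55. Of 12 B cell markers tested, 11 fell in Fancc-/-, 0 passed in Fancg-/- and 11 fell in the double knockout, with median changes of -2.50, -1.42 and -2.25. The array medians of the erythroid markers, relative to wild type, ran from -0.17 to 0.17 for wild type, 0.84 to 1.41 for Fancc-/-, 0.55 to 0.72 for Fancg-/- and 0.32 to 1.10 for the double knockout. Those of the B cell markers ran from -0.25 to 0.24, -2.88 to -1.97, -2.04 to -0.66 and -2.47 to -1.75 in the same order. In whole marrow, fewer cells of a type and less RNA per cell cannot be told apart, and the part of these shifts in the results on the ribosomal genes was not tested. Correlations between arrays over the tested genes were 0.954 to 0.985 within Fancc-/- and 0.973 to 0.992 within the double knockout, against 0.986 to 0.993 within wild type. RNA input was 2 µg, but 0.91 µg for Fancg-/- replicate 3.

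The ribosomal genes were bright in every genotype. Their mean signals over the 12 arrays ran from 6.46 for Mrps27, a mitochondria-specific small-subunit protein, to 10.49 for Mrps14, which has a bacterial counterpart, with a median of 8.74. The median of all tested genes was 7.38. Signals of different probe sets are not levels per transcript, so the genes are not ranked against each other here. By group means, the double knockout was the highest of the 4 genotypes for 49 of the 76 genes (64.5%), against 26.1% of all tested genes. Fancg-/- was highest for 18 (23.7%, all genes 17.7%), Fancc-/- for 6 (7.9%, all genes 26.8%) and wild type for 3 (3.9%, all genes 29.4%). Wild type was the lowest genotype for 37 genes (48.7%, all genes 28.0%) and Fancc-/- for 31 (40.8%, all genes 27.8%). The double knockout was lowest for 6 (7.9%, all genes 32.8%) and Fancg-/- for 2 (2.6%, all genes 11.4%). The distances were small: the 4 group means of a gene spanned 0.14 to 0.58, with a median span of 0.31, beside 0.32 for all tested genes.

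**Figure D1:**
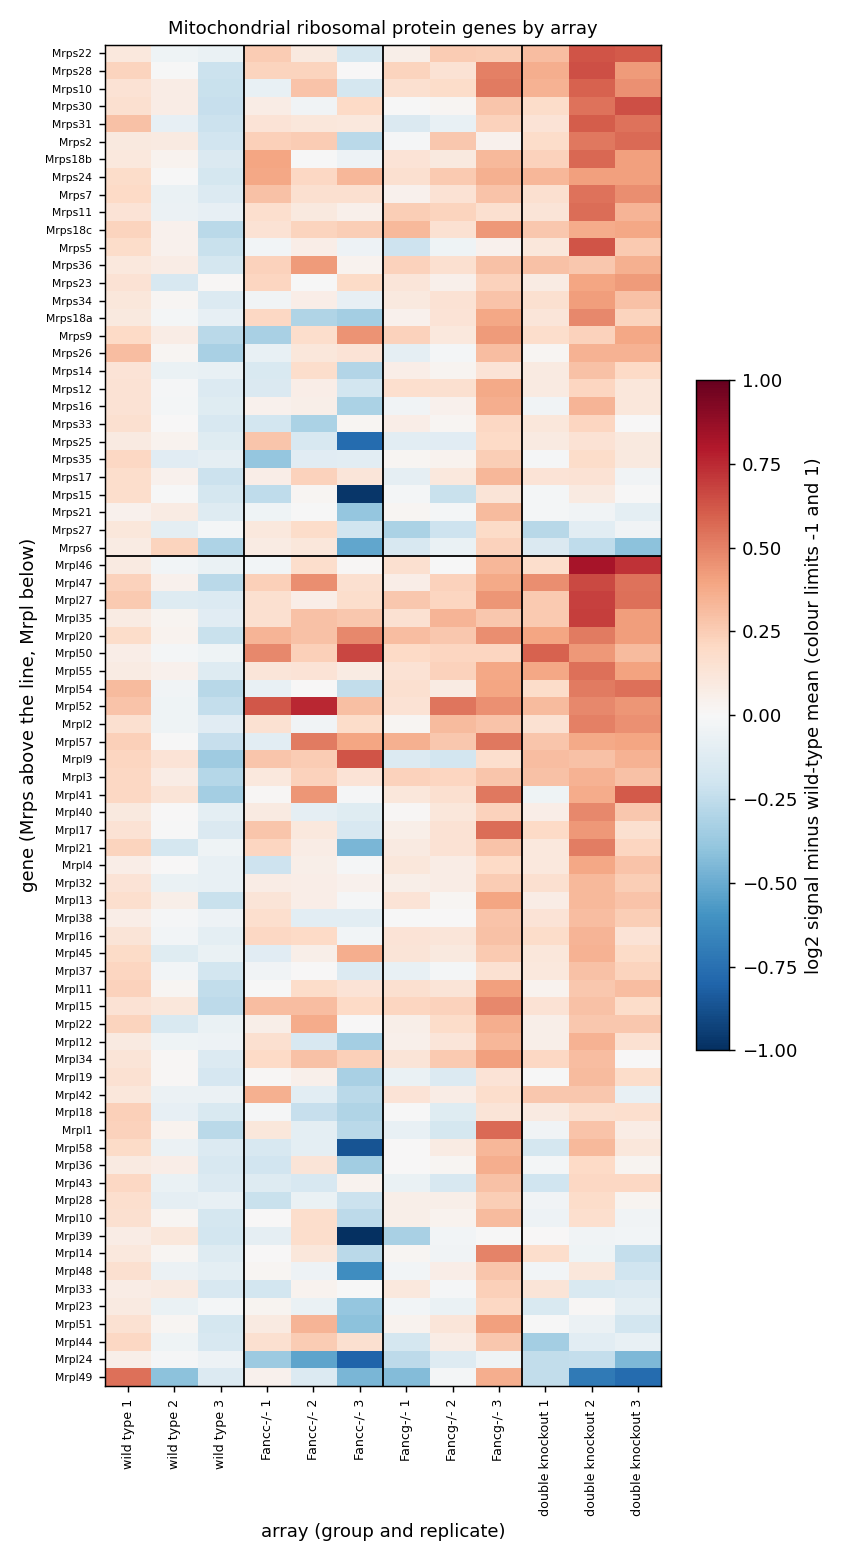
Signal of each of the 76 genes (rows) on each of the 12 arrays (columns), as log2 signal minus the wild-type mean of that gene, with Mrps genes above the line and Mrpl genes below it, each sorted by the change in the double knockout. The double-knockout columns are red for most genes, while Mrpl24 and Mrpl49 at the bottom are blue in all 3.

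In the double knockout most of these genes read slightly higher than in wild type. The change was above 0 for 64 of the 76 and below 0 for 12, with a median of 0.23, where the median of all 11908 tested genes was -0.01. For 26 genes every double-knockout array lay above every wild-type array, as it did for 12.5% of all tested genes. For 1 gene, Mrpl24, every double-knockout array lay lower, as for 16.9% of all genes. Only 3 genes passed the test, all higher: Mrpl35, Mrpl20 and Mrpl55. Over all genes, 2.27% were called higher and 3.01% lower, so 3 of 76 is close to the background share. At an unadjusted p under 0.05 there were 28 (36.8%), of which 27 were higher, against 24.2% of all tested genes, of which 1247 were higher and 1629 lower.

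The 3 genes that rose encode large-subunit proteins with bacterial counterparts. Mrpl35 read 9.81, 9.76 and 9.62 in wild type and 9.99, 10.42 and 10.15 in the double knockout. Every double-knockout array lay above the wild-type arrays, by the least in replicate 1. The change was 0.46 ± 0.12 SE, or 1.37-fold (limma adjusted p = 0.04998). Mrpl20, whose bacterial counterpart acts early in assembly of the large subunit, read 10.10, 9.95 and 9.69 in wild type and 10.31, 10.43 and 10.33 in the double knockout. Here too the groups did not overlap, and the change was 0.44 ± 0.12 SE, or 1.36-fold (limma adjusted p = 0.04957). Mrpl20 was also higher on every array of both single knockouts than in wild type, at 10.25, 10.21 and 10.39 in Fancc-/- and 10.22, 10.18 and 10.38 in Fancg-/-, with adjusted p of 0.09815 and 0.4843. Mrpl55 read 7.88, 7.84 and 7.67 in wild type and 8.18, 8.35 and 8.20 in the double knockout. Its change was 0.44 ± 0.11 SE (limma adjusted p = 0.04783). Its Fancg-/- arrays, at 7.94, 8.03 and 8.18, lay above wild type and reached the lowest double-knockout array. All 3 calls stood at the threshold: Mrpl55 passed in 8 of 23 alternative analyses, and Mrpl35 and Mrpl20 in 5 of 23 each. No member passed once any 1 wild-type array was left out, nor with the Xist signal as a covariate, under which the changes of Mrpl20, Mrpl55 and Mrpl35 were 0.45, 0.43 and 0.23. Without double-knockout replicate 1, 12 members passed, without Fancc-/- replicate 3 it was 8, and with array weights 31, with Mrpl35, Mrpl20 and Mrpl55 among them each time.

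**Figure D2:**
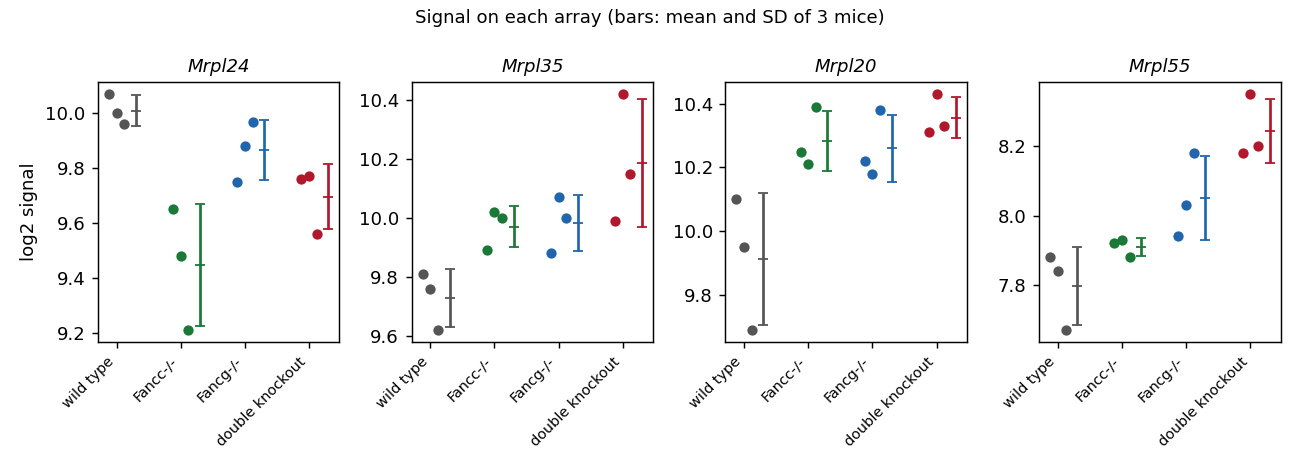
Log2 signal of the 4 member genes that passed a test against wild type, on each array (points) with the mean and SD of 3 mice (bars), by genotype, with a separate vertical scale for each gene. Mrpl24 is lowest in Fancc-/-, while Mrpl35, Mrpl20 and Mrpl55 are highest in the double knockout, whose points lie above all wild-type points.

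Close behind, and named after their values were seen, stood Mrpl47 at 0.56 (adjusted p = 0.05369) and Mrps22 at 0.52 (adjusted p = 0.05734). The highest value among the members was that of Mrpl46, a mitochondria-specific large-subunit protein, at 0.57 ± 0.17 SE (adjusted p = 0.06659). Mrpl46 read 8.33, 8.21 and 8.17 in wild type and 8.41, 9.06 and 8.96 in the double knockout, so replicate 1 lay near wild type and the other arrays well above it. The lowest was that of Mrpl49, at -0.58 ± 0.27 SE, which did not pass (adjusted p = 0.2089). Its wild-type arrays spread from 7.54 to 8.50 and those of the double knockout from 7.18 to 7.70, so the groups overlapped.

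**Figure D3:**
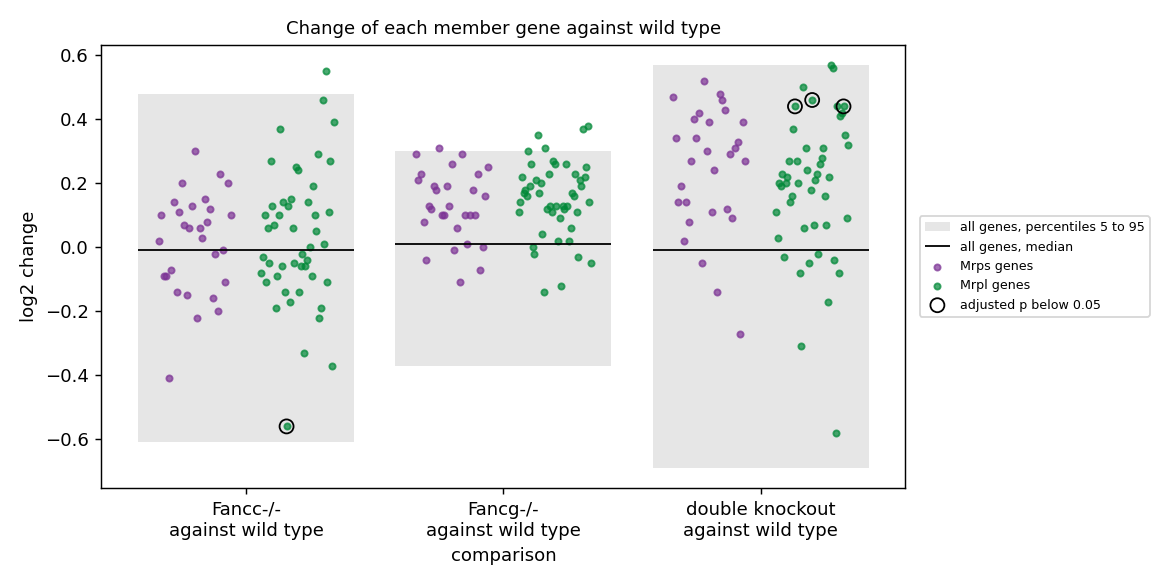
Log2 change of each of the 76 member genes (points, Mrps and Mrpl apart) against wild type in the 3 knockout genotypes, beside the percentiles 5 to 95 (grey) and the median (line) of all 11908 tested genes. Most points lie within the grey range in each comparison, and those of Fancg-/- and the double knockout lie mostly above the line.

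Genes of both subunits read higher in the double knockout. Of the 29 Mrps genes, 26 had a change above 0 and 11 did not overlap with wild type, with a median change of 0.29 and 0 that passed. Of the 47 Mrpl genes, 38 were above 0, 15 did not overlap upward and 1 did not overlap downward, with a median of 0.21. With Mrps18a and Mrps30 counted with the large subunit, the medians were 0.29 for the 27 other Mrps genes, Mrps36 among them, and 0.22 for 49 large-subunit genes. Genes with a bacterial counterpart and genes of mitochondria-specific proteins had medians of 0.30 and 0.26 in the small subunit and 0.20 and 0.22 in the large. On single arrays, the Mrps median minus the Mrpl median lay between -0.04 and 0.02 on 10 of 12 arrays and at 0.06 and 0.13 on double-knockout replicates 2 and 3. Replicate 1 of the double knockout, at 0.02, lay with the other genotypes. The difference between the subunits was not tested, since a score over chosen genes gets no p.

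The single arrays show how far the shift stood out from the spread between mice. Relative to the wild-type mean of each gene, the median over the 76 genes was 0.15, 0.00 and -0.14 on the wild-type arrays. It was 0.08, 0.10 and -0.04 in Fancc-/-, 0.06, 0.09 and 0.29 in Fancg-/-, and 0.12, 0.33 and 0.24 in the double knockout. The group means were 0.00 ± 0.15 (SD, n = 3), 0.05 ± 0.08, 0.15 ± 0.13 and 0.23 ± 0.11. Wild-type replicate 1 lay above double-knockout replicate 1, so the groups overlapped, and the distance of 0.23 between their means compares with a pooled SD of 0.12.

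**Figure D4:**
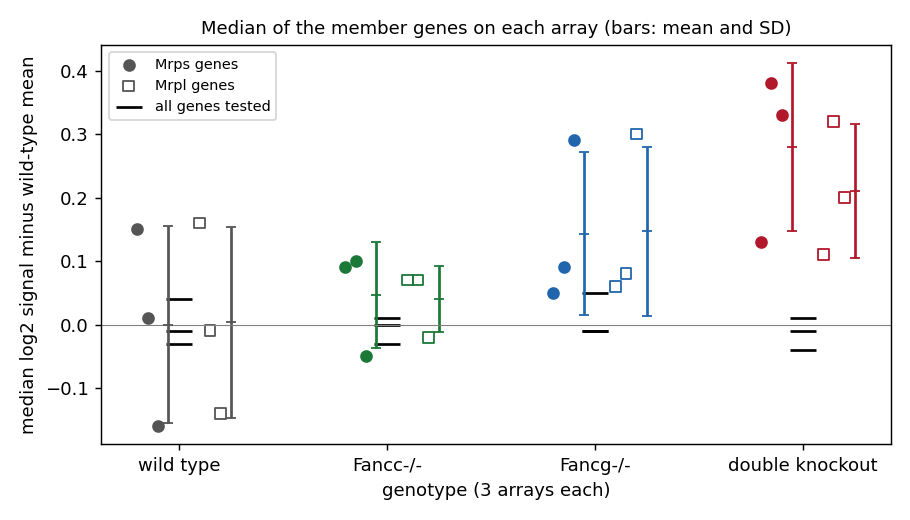
Median log2 signal minus the wild-type mean over the Mrps genes (filled circles) and the Mrpl genes (open squares) on each array, with the mean and SD of 3 arrays (bars) and the same median over all tested genes (black dashes). The 3 wild-type arrays are spread as widely as the group means are apart, and the Mrps and Mrpl medians lie farthest apart on double-knockout replicate 3, by 0.13.

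On some arrays nearly all of the genes lay to 1 side of the mean of their genotype, a pattern looked for after the values were seen. On wild-type replicate 1, 76 of the 76 genes lay above their wild-type mean, against 61.1% of all tested genes. On wild-type replicate 3, 1 gene did so, Mrps23, against 39.3% of all genes. Some other lists stood likewise on these 2 arrays. Above the wild-type mean were 13 and 1 of 14 mitochondrial translation factors, 23 and 2 of 25 assembly factors and 17 and 5 of 18 aminoacyl-tRNA synthetases. So were 11 and 1 of 11 erythroid markers and 11 and 1 of 12 B cell markers. Markers of other cells were spread less over the wild-type arrays. Their array medians ran from -0.02 to 0.03 for neutrophils, -0.07 to 0.05 for monocytes and macrophages and -0.07 to 0.03 for T and NK cells. Those of the ribosomal genes ran from -0.14 to 0.15. Wild-type replicate 2 had 35 of the 76 ribosomal genes above the mean (46.1%, all genes 48.0%). Fancg-/- replicate 3 had 74 of 76 above the mean of its group (all genes 59.8%), and replicates 1 and 2 had 6 and 14. In the double knockout the counts were 13, 68 and 35 (all genes 45.5%, 54.8% and 48.0%), and in Fancc-/- they were 46, 54 and 20 (all genes 47.6%, 58.0% and 49.2%). The spread of a single gene was ordinary, with a median within-group SD of 0.17 beside 0.19 for all tested genes. Fancg-/- replicate 3 was the array with the low RNA input, and its B cell markers stood at -0.66 where those of replicates 1 and 2 stood at -2.04 and -1.61. Double-knockout replicate 1, the lowest of its group, had erythroid markers at 1.10, against 0.32 and 0.50 in replicates 2 and 3. The part of either in these shifts was not tested.

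In Fancc-/- marrow the genes read both above and below wild type. The change from wild type was above 0 for 41 genes and below 0 for 35, with a median of 0.04 beside -0.01 for all genes. For 9 genes every Fancc-/- array lay above wild type (11.1% of all genes) and for 1 every array lay below it (13.1%). The call was 0 higher and 1 lower, where 2.18% and 2.36% of all genes were called, and 6 members (7.9%) had an unadjusted p under 0.05, beside 19.8% of all genes. The gene that fell was Mrpl24, a large-subunit protein whose bacterial counterpart binds early in assembly. Mrpl24 read 10.07, 10.00 and 9.96 in wild type and 9.65, 9.48 and 9.21 in Fancc-/-. All Fancc-/- arrays lay below all wild-type arrays, and the change was -0.56 ± 0.13 SE, or 1.48-fold lower (limma adjusted p = 0.02879). In the double knockout Mrpl24 read 9.76, 9.77 and 9.56, a change of -0.31 that did not pass (adjusted p = 0.162). In Fancg-/- it read 9.75, 9.88 and 9.97, with 1 array within the wild-type range. The call held in 17 of 23 alternatives (adjusted p 0.0242 to 0.107), and was lost once any 1 wild-type array was left out, and without Fancc-/- replicate 3, where the change was -0.44.

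Single arrays parted for some genes in Fancc-/-, as they did in other genotypes for Mrpl46 and Mrpl49, given above. The Fancc-/- genes named here were picked out after their values were seen. On Fancc-/- replicate 3, Mrps15 read 8.09 against 8.81 and 9.08 on replicates 1 and 2. Mrpl39 read 8.71 against 9.68 and 9.94. Mrpl58, a release factor built into the large subunit, read 7.89 against 8.60 and 8.66. No array of another genotype was as low for any of the 3. On the same array the monocyte and macrophage markers (9 tested) stood at a median of -1.02 from wild type, against -0.12 and -0.28 on replicates 1 and 2. That list was split on replicate 3. C1qa, C1qb and Vcam1, at 8.05, 8.54 and 9.33, lay above every wild-type array, and the other tested markers of the list below every one. The T and NK cell markers (8 tested) stood at -1.34 on replicate 3, against -0.21 and -0.01, although Cd8a, at 6.19, lay above every wild-type array. The part of these marker shifts in the values of the ribosomal genes on this array was not tested.

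Fancg-/- marrow placed more of the genes above wild type, without a call. The change was above 0 for 66 genes and below 0 for 10, with a median of 0.15 beside 0.01 for all genes. For 13 genes every Fancg-/- array lay above wild type (8.67% of all genes) and for 0 every array lay below (8.61%). No member passed limma's adjusted p, where 0.0084% and 0.042% of all genes were called higher and lower, and 8 members (10.5%) had an unadjusted p under 0.05, all higher, against 7.0% of all genes. The smallest p belonged to Mrpl20, given above with its Fancg-/- values. Mrps18c read 10.01, 9.83 and 9.52 in wild type and 10.11, 9.94 and 10.22 in Fancg-/-, a change of 0.31 ± 0.13 SE with overlapping arrays (limma adjusted p = 0.6478). Mrpl15, a large-subunit protein with a bacterial counterpart, read 9.36, 9.33 and 8.95 against 9.43, 9.44 and 9.69, a change of 0.30 ± 0.13 SE (adjusted p = 0.6584). Without Fancg-/- replicate 3 the median change of the members was 0.08. The Y-linked Eif2s3y read 7.64, 9.09 and 5.78 in Fancg-/- and 2.89 to 3.20 in wild type. Y-linked signal and genotype therefore cannot be told apart between these groups either. All 3 comparisons share the wild-type arrays, so their counts are not independent.

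No member passed in any comparison between the knockouts, where 0.0084% of all genes were called between the double knockout and Fancc-/-, 0% between the double knockout and Fancg-/-, and 0.109% between Fancg-/- and Fancc-/-. Against Fancc-/-, 64 genes were higher and 12 lower in the double knockout, with a median of 0.20. At an unadjusted p under 0.05 there were 16 (21.1%), near the 19.7% of all genes. Fancc-/- arrays read like wild type for sex-linked genes, with Xist at 11.19 to 12.13 and Eif2s3y at 2.94 to 3.30, so sex-linked signal and genotype cannot be told apart here either. Mrps22, a mitochondria-specific small-subunit protein, read 8.28, 8.60 and 8.59 in the double knockout and 8.23, 8.07 and 7.80 in Fancc-/-, a difference of 0.46 ± 0.14 SE (limma adjusted p = 0.1359). Mrpl54 read 7.43, 7.77 and 7.80 against 7.17, 7.25 and 7.00, a difference of 0.53 ± 0.17 SE (adjusted p = 0.1406). In both genes the arrays of the 2 genotypes did not overlap. Against Fancg-/-, 53 genes were higher and 23 lower, with a median of 0.07 and 6 (7.9%) at an unadjusted p under 0.05, where all genes had 14.4%. Mrps5, which has a bacterial counterpart, differed by 0.40 ± 0.15 SE (limma adjusted p = 0.2673) and Mrps31 by 0.42 ± 0.17 SE (adjusted p = 0.281). Sex-linked signal differed between these groups too. Mean Xist was 6.82 in the double knockout and 9.80 in Fancg-/-, and mean Eif2s3y was 9.00 and 7.50. Fancg-/- replicate 2, at 7.34 and 9.09, lay within the double-knockout range for both genes. The part of sex-linked signal in this comparison was not tested. Between Fancg-/- and Fancc-/-, 63 genes were higher in Fancg-/- and 13 lower, with a median of 0.12 and 6 (7.9%) at an unadjusted p under 0.05, where all genes had 9.0%. Mrpl24 was higher in Fancg-/- by 0.42 ± 0.13 SE (adjusted p = 0.3571) and Mrps12 by 0.32 ± 0.12 SE (adjusted p = 0.467). Eif2s3y read 5.78 to 9.09 in Fancg-/-, above every Fancc-/- array. Y-linked signal and genotype cannot be told apart between Fancg-/- and Fancc-/-. Without double-knockout replicate 1, 3 members passed against Fancc-/- (Mrpl46, Mrps22 and Mrpl54) and 1 against Fancg-/- (Mrpl46).

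Some members were followed for their roles, whatever their values. None of these passed in a comparison with wild type. Mrpl10 and Mrpl12 form the stalk that recruits translation factors, and Mrpl12 also binds the mitochondrial RNA polymerase. Mrpl10 stood, relative to wild type, at -0.03, 0.14 and 0.03 (each ± 0.15 SE) in Fancc-/-, Fancg-/- and the double knockout, and Mrpl12 at -0.11, 0.17 and 0.19 (each ± 0.14 SE). No value lay more than 2 SE from 0. Mrps12, a protein of the decoding centre, stood at -0.09, 0.23 and 0.14 (each ± 0.12 SE). The 3 Mrps18 paralogs differ in their place, since Mrps18b and Mrps18c encode small-subunit proteins. In the double knockout Mrps18a stood at 0.27 ± 0.17 SE, Mrps18b at 0.40 ± 0.15 SE (limma adjusted p = 0.1333) and Mrps18c at 0.34 ± 0.13 SE (adjusted p = 0.1266). Mrps18b read 7.84, 7.77 and 7.59 in wild type and 7.96, 8.31 and 8.14 in the double knockout, without overlap. Mrpl37 and Mrps30 are related proteins of the large subunit. In the double knockout Mrps30 stood at 0.46 ± 0.16 SE (limma adjusted p = 0.1015) and Mrpl37 at 0.21 ± 0.13 SE. Mrps30 read 8.61, 8.53 and 8.22 in wild type and 8.64, 9.00 and 9.10 in the double knockout, with replicate 1 barely above the highest wild-type array.

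Genes read on several probe sets did not always give 1 direction. Of the 76 genes, 34 had 1 probe set and 42 had several. Counting only probe sets that passed the filter on dim genes, 32 genes had several, and all of a gene's probe sets had the same sign of change in the double knockout for 20 of them. In Fancc-/- and in Fancg-/- that count was 18 of 32. Mrpl24, Mrpl20 and Mrpl55 have 1 probe set each. Mrpl35 has 3, and the others are dim, with means of 4.40 and 4.04 and changes of -0.12 and -0.07 in the double knockout, so with the mean of its probe sets its change there was 0.09.

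The rest of the machinery of mitochondrial translation gave few calls. Of all tested genes, 2.18% were called higher and 2.36% lower in Fancc-/-. The same shares were 0.0084% and 0.042% in Fancg-/-, and 2.27% and 3.01% in the double knockout. Lists this short would hold few calls at those shares. Mitoribosome proteins under other symbols (5 tested, of which Mrpl58 is also counted above), 14 translation factors and 18 aminoacyl-tRNA synthetases had 0 calls against wild type in limma's test. At an unadjusted p under 0.05 these lists held 1, 3 and 5 genes in Fancc-/-, 0, 1 and 1 in Fancg-/- and 1, 3 and 1 in the double knockout. Over all tested genes the shares were 19.8%, 7.0% and 24.2%. Their median changes in the double knockout were 0.09, 0.08 and 0.08, all below the 0.23 of the ribosomal genes. Changes above 0 were still common there, in 3 of 5, 11 of 14 and 14 of 18 genes. The ribosomal genes had 64 of 76 above 0, and all tested genes 47.8%. Of 25 assembly factors, 1 rose: Gtpbp10, a GTPase in the assembly of the large subunit. Gtpbp10 read 6.55, 6.34 and 6.05 in wild type and 6.80, 7.15 and 7.44 in the double knockout, without overlap, a change of 0.81 ± 0.20 SE (limma adjusted p = 0.04083). Its changes in Fancc-/- and Fancg-/- were -0.04 and 0.01. Of 16 genes of mitochondrial DNA maintenance and transcription, 1 fell in Fancc-/- and the double knockout: Polg, the catalytic subunit of the mitochondrial DNA polymerase. Polg read 7.65, 7.92 and 7.46 in wild type. It read 7.01, 7.23 and 6.67 in Fancc-/- mice and 7.14, 7.03 and 6.84 with both genes lost. Both groups lay below wild type on every array, with changes of -0.70 ± 0.18 SE (limma adjusted p = 0.04286) and -0.67 ± 0.18 SE (adjusted p = 0.04896). Of 8 regulators of mitochondrial genes, Myc fell in the double knockout, from 8.33, 8.71 and 8.48 to 8.20, 7.68 and 7.35, a change of -0.76 ± 0.20 SE (limma adjusted p = 0.0473). The Myc arrays of the 2 groups did not overlap. The calls of Gtpbp10, Polg and Myc all lay close to the threshold of 0.05. How they fared in the alternative analyses is not given here.

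Some promoters of the ribosomal genes held short motifs known from nuclear genes of mitochondria. RefSeq starts on GRCm38.p6 were matched for 67 of the 76 genes, with 73 promoters of 300 bases, each from upstream of the start to 50 bases after it. The ETS motif CCGGAAG, searched on both strands as were the others, stood in 25 of the 67 genes (37.3%), against 19.4% of 9642 tested genes with a promoter. The YY1 motif AAGATGG stood in 13 genes (19.4%, against 8.41%) and the NRF1 motif GCGCATG in 8 (11.9%, against 7.46%). Per promoter the shares were 34.2%, 17.8% and 11.0%, against 8.86%, 6.34% and 3.91% of all 32851 mouse promoters. At least 1 of the 3 motifs stood in 37 genes and none in 30, and the share for all tested genes is not given here. The promoters of the 4 genes that passed a test are shown because they differ in this respect, with that of Mrps18b as one of 4 genes that held both the ETS and the NRF1 motif. Each is given 5′ to 3′ on its own strand, in lower case with motif matches in capitals. They lie at chr3:87919294-87919593 (plus strand) for Mrpl24, chr6:71823735-71824034 (minus) for Mrpl35, chr4:155802628-155802927 (plus) for Mrpl20, chr11:59202236-59202535 (plus) for Mrpl55 and chr17:35916391-35916690 (minus) for Mrps18b.
Mrpl24: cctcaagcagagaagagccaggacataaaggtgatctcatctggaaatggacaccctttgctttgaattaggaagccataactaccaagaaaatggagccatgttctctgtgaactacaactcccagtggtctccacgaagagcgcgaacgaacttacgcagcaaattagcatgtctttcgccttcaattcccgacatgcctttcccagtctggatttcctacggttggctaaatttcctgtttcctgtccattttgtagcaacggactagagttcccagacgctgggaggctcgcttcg
Mrpl35: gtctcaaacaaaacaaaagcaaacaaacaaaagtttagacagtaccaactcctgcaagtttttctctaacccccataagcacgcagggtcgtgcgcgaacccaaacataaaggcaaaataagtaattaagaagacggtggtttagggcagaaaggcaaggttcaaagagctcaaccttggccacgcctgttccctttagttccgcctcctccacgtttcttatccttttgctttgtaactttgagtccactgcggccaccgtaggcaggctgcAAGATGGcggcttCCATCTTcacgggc
Mrpl20: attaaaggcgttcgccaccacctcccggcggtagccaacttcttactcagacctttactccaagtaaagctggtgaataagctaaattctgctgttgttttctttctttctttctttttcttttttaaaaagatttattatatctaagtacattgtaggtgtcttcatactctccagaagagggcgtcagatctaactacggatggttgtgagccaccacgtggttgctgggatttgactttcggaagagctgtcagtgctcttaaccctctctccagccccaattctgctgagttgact
Mrpl55: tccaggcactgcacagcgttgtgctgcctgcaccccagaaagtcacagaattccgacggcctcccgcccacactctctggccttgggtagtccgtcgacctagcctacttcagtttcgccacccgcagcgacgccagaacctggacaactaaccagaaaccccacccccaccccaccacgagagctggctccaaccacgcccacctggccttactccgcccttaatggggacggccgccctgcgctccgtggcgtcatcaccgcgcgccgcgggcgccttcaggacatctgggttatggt
Mrps18b: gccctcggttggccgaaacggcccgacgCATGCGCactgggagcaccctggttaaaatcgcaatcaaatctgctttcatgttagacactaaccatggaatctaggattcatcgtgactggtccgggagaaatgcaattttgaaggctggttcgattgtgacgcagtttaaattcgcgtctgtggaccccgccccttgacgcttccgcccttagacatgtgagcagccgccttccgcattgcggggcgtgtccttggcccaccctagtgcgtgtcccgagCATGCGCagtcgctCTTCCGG
Mrpl35 held the YY1 motif on both strands, from bases 274 and 287 of the window, just after the start. Mrps18b held the NRF1 motif from bases 29 and 280 and the ETS motif from base 294, all on the reverse strand. The windows of Mrpl24, Mrpl20 and Mrpl55 held none of the 3 motifs as spelled here. Of the 3 genes that rose in the double knockout, 1 thus held a match. A match is a description of the letters and not a measure of binding, which these arrays do not give.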

How the data were processed

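RNA of whole marrow from 12 mice, 3 per genotype, was amplified from an oligo-dT primer and hybridized as biotin-labelled cRNA, per the labels' protocols. The deposited table holds a log2 signal for each probe set, which the authors obtained with RMA and Partek, per the submitters' processing notes, with versions not given in the sources used here. The number of arrays, 3 per genotype, sets the precision. The table held 45101 probe sets, 64 of them controls, and array medians ran from 4.79 to 4.87. Probe sets with exactly 1 symbol in GEO's platform annotation were used (34945), while 932 with several and 9160 with none were not used here. By Entrez ID, 34741 matched the RefSeq gene table, which changed 0 symbols.

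Each gene was read on its probe set with the highest mean, and tested if that probe set lay above the array median on at least 3 arrays. The array median was first taken with the control probe sets and later without them, after calls had been seen, which changed no call of a member. limma 3.58.1 in R 4.3.3 fitted 1 model to 12 arrays with a variance trend (8 residual degrees of freedom). Tests were 2-sided, with Benjamini-Hochberg adjustment over 11908 genes in each of 6 comparisons and a threshold of 0.05. The script was tested on simulated data. The p-values set a difference between group means against the spread between arrays within genotypes, pooled over the 4 genotypes. Named are members past the threshold or, where none passed, those with the smallest p (3 against wild type, 2 between knockouts), 8 members chosen for their roles, genes past the threshold in the other mitochondrial lists, and Fancc, Fancg and sex-linked genes as checks. The members, lists and rules were chosen with earlier results of these data known. Alternatives covered the filter, the probe set, the scaling, the variance model, array weights, the groups in the fit, a replicate block, Xist as a covariate, the subunit by location and leaving out each array in turn.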

Additional observations from a re-analysis of the deposited data

How the results depend on the processing

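The median change of the members stayed within 1 SD between arrays (0.12) of its reported value in all 144 pairs of an alternative and a comparison. That margin is wide beside the changes of 0.23 in the double knockout and 0.15 in Fancg-/-. The median change with Xist as a covariate is not given here. When single arrays were left out, the median change ranged from 0.16 to 0.31 for the double knockout against wild type. For Fancg-/- against wild type it ranged from 0.08 to 0.22, and for Fancc-/- from -0.04 to 0.09. The counts of called genes were less stable, and the cause was not tested. In the double knockout against wild type, 3 members passed, but 0 passed with no filter, with arrays centred on their medians, in a fit of the 2 groups alone and with Xist as a covariate. With the mean of all probe sets or a robust trend 1 passed, with the filter at percentile 75 it was 5, and with array weights 31, of which 30 were higher. Leaving out single arrays gave 0 to 12: 12 without double-knockout replicate 1, 8 without Fancc-/- replicate 3, and 0 without any of the other arrays. With only unique probe sets the counts against wild type were 0 for the double knockout and 0 for Fancc-/-, which says nothing about the called genes, since Mrpl24, Mrpl20 and Mrpl55 have no such probe set and those of Mrpl35 are dim. With no variance trend the count was 3, but only Mrpl55 was shared with the genes named.

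In Fancc-/- against wild type, 1 member passed. The count was 0 with 2 groups and with Xist, 4 (3 higher) after quantile normalization once more and 2 with array weights. Leaving out arrays gave 0 to 2, 0 of them when a wild-type array was left out, and without Fancc-/- replicate 3 the gene called was Mrpl52. Between knockouts, where 0 passed, array weights gave 5 for the double knockout against Fancc-/- and 8 against Fancg-/-. Leaving out arrays gave 0 to 3 and 0 to 1, each highest without double-knockout replicate 1. With the replicate number as a block, 0 members passed in the double knockout against wild type, and no other call of a member changed. Deviations of same-numbered arrays correlated at -0.365 to 0.195, and of others at -0.233 to 0.356. These ranges overlap, and whether the numbers pair the mice cannot be told from them.

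The Mrps minus Mrpl median change in the double knockout against wild type, 0.08, was 0.02 with Xist. Against Fancc-/- it was 0.10, but 0.02 with Xist and 0.06 by location of the protein, and 0.04 to 0.11 when arrays were left out. In Fancc-/- against wild type it was 0.04, but 0 with the mean of probe sets or array weights, and -0.02 to 0.04 when arrays were left out. The same ranges were -0.04 to 0 for Fancg-/- against wild type, 0.01 to 0.09 for the double knockout against Fancg-/- and -0.03 to 0.02 for Fancg-/- against Fancc-/-. Single genes reversed in 3 cases: Mrpl15 in Fancg-/- with unique probe sets (-0.05), and Mrpl10 in the double knockout without wild-type replicate 3 (-0.06) or double-knockout replicate 2 (-0.04).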
